A study of Mus musculus with 5 samples.

Results

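Among 6162 cells kept from 5 single-cell libraries of mouse dermis, 51 cells were chosen by measured counts of marker genes as endothelial or mural. Endothelial cells line blood and lymphatic vessels, and mural cells, which are smooth muscle cells and pericytes, wrap them. A cell belonged when Aqp1, Egfl7, Ccl21a, Acta2 and Tagln gave 3 or more UMIs together and Ptprc gave none. A UMI (unique molecular identifier) marks 1 captured RNA molecule. The cell also had to carry under 10 UMIs of Krt5 and Krt14, which are keratinocyte keratins, and under 5 of Col1a1, Col1a2, Col3a1 and Dcn, which are fibroblast matrix genes. The 42 cells with more UMIs of Aqp1, Egfl7 and Ccl21a than of Acta2 and Tagln are called endothelial, and the 9 with the reverse are called mural. These 5 genes set the classes, so their levels and every contrast between the classes are descriptions without a test. In the mm10 build with GENCODE vM21, Aqp1 lies on chromosome 6 from 55336432 to 55348555, Egfl7 on chromosome 2 from 26580014 to 26593120, Acta2 on chromosome 19 from 34241090 to 34255590 and Tagln on chromosome 9 from 45929619 to 45936058.

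The libraries, 1 for each of P45, P50, P63, P80 and P50_Depil5D, come from C57BL/6 mouse dermis, from which viable CD45+ cells had been sorted. In these titles the number after P was read as the age in postnatal days. P50_Depil5D was read as postnatal day 50 with 5 days of depilation, the same age as P50. The design text places 4 time points in telogen, in which hair follicles rest, and the series title names oncostatin M from macrophages and JAK-STAT5 signalling as its subject. No genotype other than the strain, no drug and no number of animals is given in the sources used here, and the labels do not spell out the depilation in the name P50_Depil5D. The sort was for CD45, the product of Ptprc, yet a Ptprc UMI was found in only 2591 of the 6162 kept cells. The 51 cells described here are a small part of those without one. Their number says nothing of how many endothelial and mural cells the dermis holds.

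Vessels are built from an endothelial tube held by junction proteins such as VE-cadherin (Cdh5) and PECAM-1 (Pecam1). Blood capillaries of skin take up fatty acids, venules display P-selectin and the chemokine-binding receptor ACKR1 to leukocytes, and lymphatic endothelium, specified by PROX1, makes the chemokine CCL21 that guides dendritic cells and T cells. Oncostatin M, interleukin-6 and leukemia inhibitory factor belong to 1 cytokine family whose receptors all pair with gp130, the product of Il6st, and signal through JAK kinases and STAT factors.

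The libraries held 2142, 1462, 576, 488 and 1494 kept cells, in the order P45, P50, P63, P80 and P50_Depil5D, with median depths between 1236 and 2550 UMIs per cell. P45 gave 15 endothelial and 4 mural cells, P50 gave 9 and 2, P63 gave 7 and 1, P80 gave 7 and 2, and P50_Depil5D gave 4 endothelial cells and no mural cell. The endothelial cells carried 130943 UMIs in all, with 630 to 12772 per cell, and the mural cells 24789, with 1253 to 3976 per cell. There is 1 library per group, so no difference between groups has a replicate check. All intervals below are exact 95% intervals that cover counting error only.

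The same cell barcodes recurred across libraries, and this touches most endothelial cells outside P45. A barcode found in another library was carried by 50.6% of the kept P80 cells, 34.0% of P63, 13.6% of P50, 12.05% of P50_Depil5D and 0.560% of P45. Of the 27 endothelial cells outside P45, 19 had a shared barcode and 8 did not. Those 19 cells came from 7 barcodes, which had 21 copies in P50, P63, P80 and P50_Depil5D. The 2 remaining copies fell outside the rule. Over 5809 genes, the correlation of log-scaled counts between copies of 1 barcode was 0.486 to 0.764, with a median of 0.699 over 24 pairs. Between different barcodes it was 0.288 to 0.544, with a median of 0.377 over 186 pairs. The 2 ranges overlap, and the median of the same-barcode pairs lies above every other-barcode pair. The deepest copy of each of the 7 barcodes lay in P63 or P80. In the P45 library 1 endothelial cell shared its barcode, and its partner in P50_Depil5D was unlike it, with 4 UMIs of Ptprc and 10 of Cd3e, a T cell receptor subunit. No mural cell had a shared barcode. With each barcode counted once, at its deepest copy, 30 endothelial and 9 mural cells remain, or 39 of the 51. The copies are not separate cells as far as these files show, so shares, counts of genes past 2-fold and several gene levels below are also given with 1 copy per barcode. How the copies arose was not tested.

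**Figure D1:**
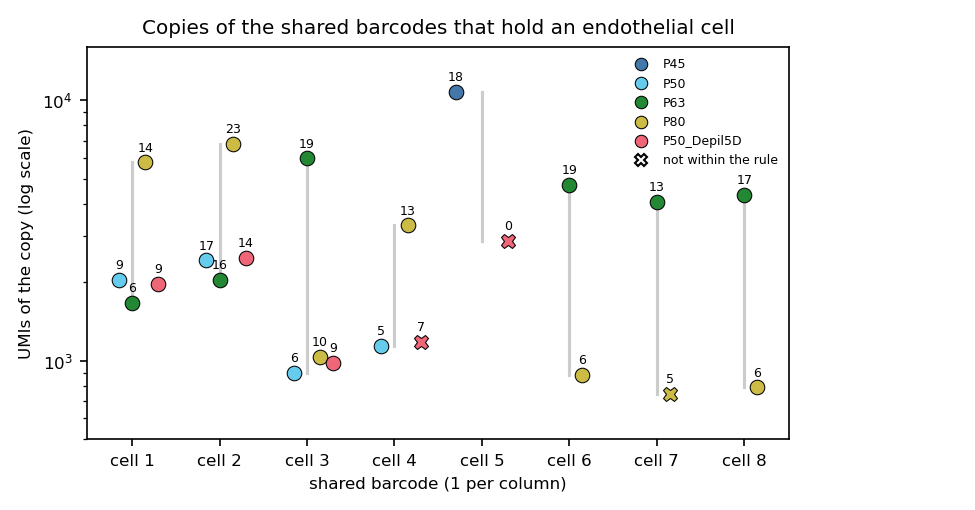
Each column is 1 of the 8 barcodes that were found in more than 1 library and held an endothelial cell. Each point is a copy, coloured by library and placed at its UMIs on a log scale. The number over a point gives how many of 27 pan-endothelial markers were detected, and a cross marks a copy outside the rule. In 7 columns every copy carried 5 or more of these markers, and in the remaining column, with the P45 cell, the second copy carried 0.

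The labels held for nearly all members on genes that the rule did not use. Of 27 pan-endothelial markers, the 42 endothelial cells carried 2 to 23, with a median of 11, and 41 of them carried 3 or more. Of the 6111 cells outside the rule, 47 carried 3 or more, and their median was 0. Of 19 contractile smooth muscle markers, the 9 mural cells carried 8 to 17, with a median of 14, against 0 to 7 with a median of 3 in the endothelial cells. The melanocyte and adipocyte lists were at 0 in both classes. The leukocyte markers, 16 genes, summed to 145 UMIs or 1107 CPM (UMIs per 1000000 UMIs of the class) in the endothelial cells and to 11 UMIs or 444 CPM in the mural cells. In the 2591 kept cells with a Ptprc UMI they stood at 15672 CPM.

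Just outside the threshold stood 18 cells with 2 UMIs of the 5 genes, of which 5 carried 3 or more pan-endothelial markers and 5 carried none. Just inside it stood 2 cells with 3 such UMIs, and both carried 3 or more. The keratin and collagen limits kept out 10 further cells, and 1 cell with enough UMIs was kept out by a single Ptprc UMI.

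Low counts of other cell types' markers were common. Of the 42 endothelial cells 12 carried no leukocyte marker and 8 carried 3 or more, and 19 carried no keratinocyte marker. Past a set limit stood 4 members, the limits being a Sox10 UMI, more than 1% leukocyte-marker UMIs or, for a mural cell, 3 or more pan-endothelial markers. Endothelial cells 5 and 6 of P50 each had 2 UMIs of Sox10, a transcription factor of glial cells. They carried 4 and 2 pan-endothelial markers, 3 and 2 of 6 Schwann cell (glial) markers, and no UMI of Fabp4, Pecam1, Cdh5, Kdr or Egfl7. The rule counted these 2 cells as endothelial on Aqp1 alone, and they stay in the endothelial totals unless stated. Endothelial cell 8 of P45 had 37 leukocyte-marker UMIs, 1.93% of its total, 7 of them Cd3e. Mural cell 1 of P50 carried 13 pan-endothelial markers and 29 UMIs of Fabp4. No limit was set for pericyte markers in endothelial cells, and 6 of the 42 carried 3 or more of 19. No doublet caller was run, and whether these cells are mixtures was not tested.

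**Figure D2:**
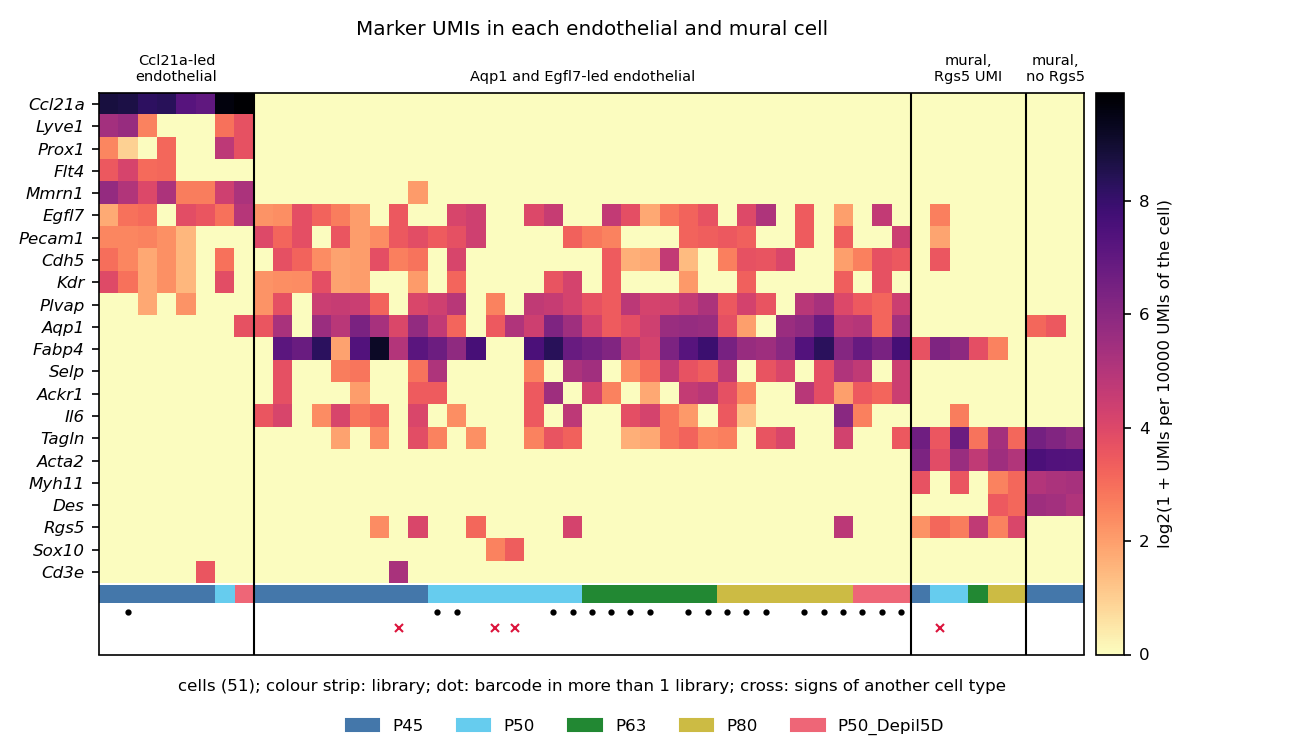
Each column is 1 of the 51 cells and each row a marker gene, shaded by log2 of 1 plus its UMIs per 10000 UMIs of the cell. The strip gives the library, a dot a barcode found in more than 1 library, and a cross 1 of the 4 cells past a limit for markers of another type. Ccl21a fills the 8 cells on the left and no other column, Fabp4 fills most of the 34 cells beside them, and Acta2 is found in the 9 mural cells alone.

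The cells chosen as endothelial or mural were under 2% of each library. Endothelial cells made up 0.700% of P45 (interval 0.392% to 1.15%), 0.616% of P50 (0.282% to 1.17%), 1.22% of P63 (0.490% to 2.49%), 1.43% of P80 (0.579% to 2.93%) and 0.268% of P50_Depil5D (0.0730% to 0.684%). The share was highest in P80 and lowest in P50_Depil5D, and the intervals of all 5 libraries overlapped. The ratio of P80 to P45 was 2.05 (0.707 to 5.34), and that of P50_Depil5D to P50 was 0.435 (0.0979 to 1.56). Both intervals include 1. With 1 copy per barcode the shares were 0.701%, 0.394%, 0.969%, 1.14% and 0.0760%. Without any shared barcode they were 0.657%, 0.396%, 0.263%, 0.415% and 0.0761%, and the ratio of P80 to P45 was then 0.631 (0.0149 to 4.15). So the order of P45 and P80 turned over when shared barcodes were left out, within intervals that span both orders. Leaving out cells with 2 or more leukocyte-marker UMIs brought the P45 share to 0.140%. With a gate of 2 UMIs in place of 3, P63 was highest, at 2.08%, beside 1.84% in P80.

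Mural cells were 0.187% of the P45 cells, 0.137% of P50, 0.174% of P63 and 0.410% of P80. In P50_Depil5D 0 of 1494 cells were mural, which allows a share of up to 0.201% by a floor of 3 counts and 0.247% by the exact interval. With at most 5% mitochondrial UMIs per cell, the mural share of P45 was 0. At these numbers no difference in mural share was detectable. The sort on CD45 can set all of these shares.

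**Figure D3:**
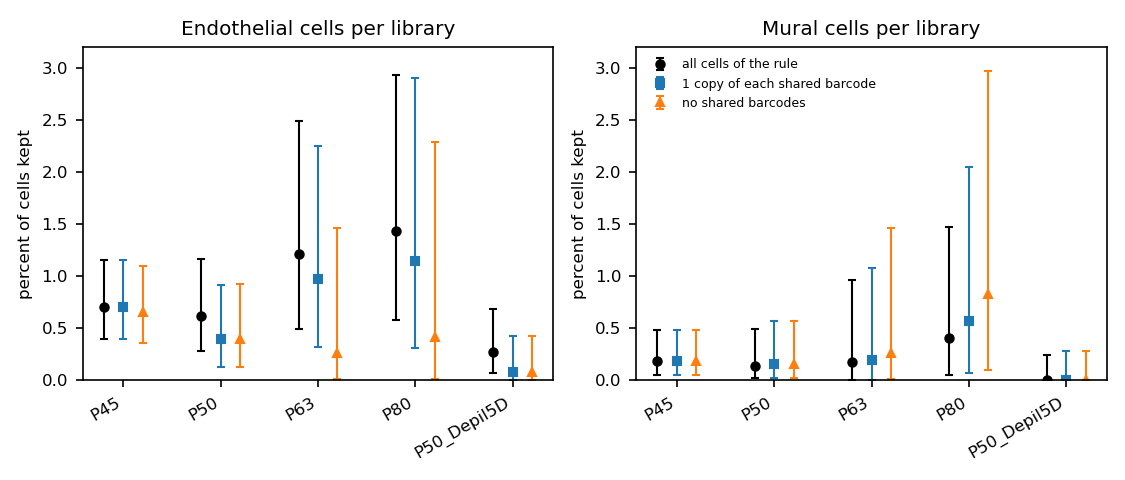
Endothelial cells (left) and mural cells (right) as a percent of the kept cells of each library, with exact 95% intervals. Circles use every cell of the rule, squares 1 copy of each shared barcode, and triangles no shared barcode. For endothelial cells the triangles of P63 and P80 lie at 0.263% and 0.415%, below their circles at 1.22% and 1.43%, and the intervals of the circles overlap.

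The 42 endothelial cells divided into 8 led by Ccl21a, in which its UMIs exceeded those of Aqp1 and Egfl7, and 34 led by Aqp1 and Egfl7. Ccl21a encodes the chemokine CCL21. The 8 Ccl21a-led cells held 1575 of its UMIs, with 24 to 558 in a cell, and the 34 cells held 0 in 90399 UMIs, which allows up to 33.2 CPM. P45 held 6 of the 8, P50 held 1, P50_Depil5D held 1, and P63 and P80 held none. Among cells with a Ptprc UMI, Ccl21a was found in 22 of 1110 in P45, with 210 UMIs of which 1 cell held 189, and in none of the other libraries. The gene is listed under 2 identifiers. ENSMUSG00000094686 carried 1574 of the UMIs and ENSMUSG00000095320 carried 1. Ccl21b, whose transcript is 99.5% identical to that of Ccl21a over 402 aligned bases, had 3, so reads of these copies could have been split in counting.

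Genes of lymphatic endothelium stood in the Ccl21a-led cells. Of 15 lymphatic markers they carried 4 to 15, against 0 to 3 in the Aqp1 and Egfl7-led cells, without overlap. Mmrn1, which encodes the matrix protein multimerin 1, had a UMI in 8 of 8 cells (130 UMIs, 3206 CPM) and in 1 of the 34. Lyve1, the hyaluronan receptor of lymphatic capillaries, had 112 UMIs in 5 of the 8 cells and 0 in the 34, which made it at least 83.2-fold higher. The 2 P45 cells over 10000 UMIs carried much of this, and without them the log2 ratio of Lyve1 went from 8.12 to 4.92. Prox1 had 15 UMIs in 5 of the 8 cells. Flt4, the receptor for the lymphatic growth factors VEGF-C and VEGF-D, had 36 in 4, and Reln, which encodes reelin, had 44 in 5. In the Aqp1 and Egfl7-led cells Flt4 and Reln were at 0. Maf, a transcription factor, stood at 59 UMIs against 1, with a level ratio of 132 (22.7 to 5283). Among cells with a Ptprc UMI, Lyve1 was found in 8 of 2591, Mmrn1 in 2 and Prox1 in 2.

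Several genes of blood capillaries and venules were at 0 in the Ccl21a-led cells. They held 0 UMIs of Fabp4, the fatty acid binding protein of capillaries, which allows up to 74.0 CPM against 11239 CPM in the 34 cells, or at least 152-fold lower. Sparc, a matrix glycoprotein, was at least 27.4-fold lower, Cd36, a fatty acid transporter, at least 18.8-fold, Selp at least 12.6-fold and Il6 at least 11.1-fold. Gadd45g, a stress-response gene, was at least 13.2-fold lower. Of 985 genes with 20 or more UMIs, 34.4% were past 2-fold, 11.3% higher and 23.1% lower in the Ccl21a-led cells, on a log2 scale with 10 CPM added, with a median of -0.24. TMM scaling moved the split from 111 higher and 228 lower to 72 and 298. Of the 12 venous and leukocyte adhesion genes, 7 passed this minimum, and 6 were lower and 1 higher. A gene that reached the minimum through 1 side alone had to differ, so these counts are descriptions. The exception was Nr2f2, a venous and lymphatic transcription factor, at 419 against 111 CPM. Of the 15 capillary and fatty acid handling genes 9 passed, with 4 lower, 2 higher and a median of -0.71. The 2 higher were Sdpr, a caveolar protein (814 against 343 CPM), and Gpihbp1, the capillary anchor of lipoprotein lipase (395 against 111 CPM). Of 27 pan-endothelial genes 19 passed, with 10 lower, 2 higher and a median of -1.07, and under TMM scaling 12 were lower and 1 higher. Kdr, a VEGF receptor, was 1.13 higher on the log2 scale. Cldn5, a tight junction claudin, was higher (1924 against 122 CPM), and Plvap, the protein of capillary diaphragms, was lower (74.0 against 1604 CPM). Restricted to P45, where 6 Ccl21a-led and 9 other cells came from 1 library, 121 genes were past 2-fold in place of 339, from fewer genes tested.

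In the 34 Aqp1 and Egfl7-led cells, capillary and venular genes were found together. Fabp4 had a UMI in 31 of them, at 15528 CPM in P45 (interval 13996 to 17182), 11756 in P50_Depil5D (9054 to 15012), 10508 in P63, 9557 in P50 and 8131 in P80. P45 was the highest, but 1 of its 9 cells held 137 of its 375 UMIs, and without that cell it stood at 10918 CPM (9575 to 12397), in an interval that overlapped those of P50, P63 and P50_Depil5D. With 1 copy per barcode Fabp4 was at 8163 CPM in P50, 10945 in P63 and 6675 in P80. In cells with a Ptprc UMI, Fabp4 was found in 23 of 2591, at 24.7 CPM. Cd36 was also highest in P45, with 2443 CPM in P45 (1860 to 3151) and 735 to 1094 CPM in the other libraries. Plvap stood at 1284, 1282, 2290, 1564 and 1102 CPM from P45 to P50_Depil5D, and its intervals overlapped in all 5.

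Selp did not share this order. Selp, P-selectin, stood at 373 CPM in P45 (170 to 707), 699 in P50, 1104 in P63 (727 to 1606), 1511 in P80 (1012 to 2171) and 1286 in P50_Depil5D (517 to 2649). P45 was lowest, and its interval lay below those of P63 and P80. The UMIs were unevenly spread. In P80 a single cell held 15 of the 29, and 2 of the 7 cells held none. Without that cell P80 stood at 1043 CPM (570 to 1750), in an interval that overlapped that of P45. With 1 copy per barcode Selp was at 93.8 CPM in P50, below P45, and at 964 in P63 and 1638 in P80. In the cells with a Ptprc UMI it had 0 of 7163749 UMIs, which allows up to 0.419 CPM. Ackr1 stood at 290, 466, 1267, 782 and 1102 CPM in the same order of libraries, with a UMI in 19 of the 34 cells. Lrg1, a secreted glycoprotein of venular endothelium, had a UMI in 28 of the 34 cells at 1284, 1515, 3312, 2189 and 2572 CPM, and was highest in P63 (2630 to 4116), in an interval that lay above those of P45 and P50.

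Genes of the oncostatin M and interleukin-6 pathway were detected in the endothelial cells as follows. The ligand oncostatin M was not found. Osm had 0 of 130943 endothelial UMIs, which allows up to 22.9 CPM, while 63 of the 2591 cells with a Ptprc UMI carried it. The ligand Il6 had 74 UMIs, all in Aqp1 and Egfl7-led cells. Over all endothelial cells it stood at 374 CPM in P45 (237 to 561), 321 in P50 (118 to 699), 654 in P63 (374 to 1062), 1459 in P80 (970 to 2109) and 141 in P50_Depil5D (3.56 to 783). P80 was the highest, and 1 of its 7 cells held 21 of its 28 UMIs. Without that cell it stood at 441 CPM (177 to 908). The cell left out also carried 9 UMIs of Rgs5, a pericyte gene, and 5 of 19 pericyte markers. Whether it is a mixture was not tested. The Ccl21a-led cells, without an Il6 UMI, held 37349 of the 61499 endothelial UMIs of P45. Within Aqp1 and Egfl7-led cells alone Il6 stood at 952 CPM in P45 (604 to 1429), above the 654 of P63, at 350 in P50 and at 184 in P50_Depil5D, and the intervals of P45 and P80 overlapped. Counting each barcode once, 15 of 30 endothelial cells (50%, interval 31.3% to 68.7%) carried Il6, at 164 CPM in P50, 771 in P63 and 1699 in P80, and the single cell left in P50_Depil5D had none. Il6 was found in 42.9% of the endothelial cells (27.7% to 59.0%) and in 1.54% of the cells with a Ptprc UMI, at median depths of 2398.5 and 2138 UMIs. Among the cells with a Ptprc UMI, P45 held 33 of the 40 with Il6, at 11.98 CPM.

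The shared receptor subunit gp130, from Il6st, had 82 UMIs in 28 endothelial cells, and stood between 482 CPM in P50 and 938 CPM in P80 with overlapping intervals in all 5 libraries. At the deepest copy of each barcode alone, Il6st was in 21 of 30 cells and Osmr in 11 (36.7%, interval 19.9% to 56.1%). In cells with a Ptprc UMI, Il6st was found in 7.91% and stood between 10.0 CPM in P80 and 41.1 CPM in P45. Osmr, the oncostatin M receptor subunit, had 14 UMIs in 12 endothelial cells (28.6%, interval 15.7% to 44.6%) and 31 UMIs in 23 of the 2591 cells with a Ptprc UMI (0.888%). Lifr, the leukemia inhibitory factor receptor, had 19 UMIs in 14 endothelial cells (33.3%) and was found in 5.52% of the cells with a Ptprc UMI. Osmr and Lifr gave at most 8 UMIs in any library, so no difference between libraries was detectable for them. Of 15 oncostatin M and JAK-STAT genes 6 had 10 or more UMIs in P80 and P45 together, and 2 were past 2-fold higher in P80 and none lower. Over all 1306 genes 15.5% were higher and 20.3% lower. Under TMM scaling 1 of the 6 was higher and 1 lower. Within Aqp1 and Egfl7-led cells it was 5 genes, with none higher and 1 lower, beside 16.0% higher and 14.1% lower of 693 genes.

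Socs3, a feedback inhibitor that STAT3 induces, had 96 UMIs in 27 endothelial cells. It stood at 520 CPM in P45 (356 to 735), 1552 in P50 (1039 to 2229), 981 in P63, 573 in P80 (286 to 1026), and 0 in P50_Depil5D, where 0 of 7114 UMIs allow up to 422 CPM. Among cells with a Ptprc UMI, Socs3 ran from 107 CPM in P50_Depil5D to 194 CPM in P63. The P50 level rested on 5 of 9 cells, with at most 14 UMIs in a cell. With 1 copy per barcode P50_Depil5D keeps a single endothelial cell. In the mural cells Il6st had 0 of 24789 UMIs, which allows up to 121 CPM, and Osmr, Lifr and Il6 had 1 UMI each.

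**Figure D4:**
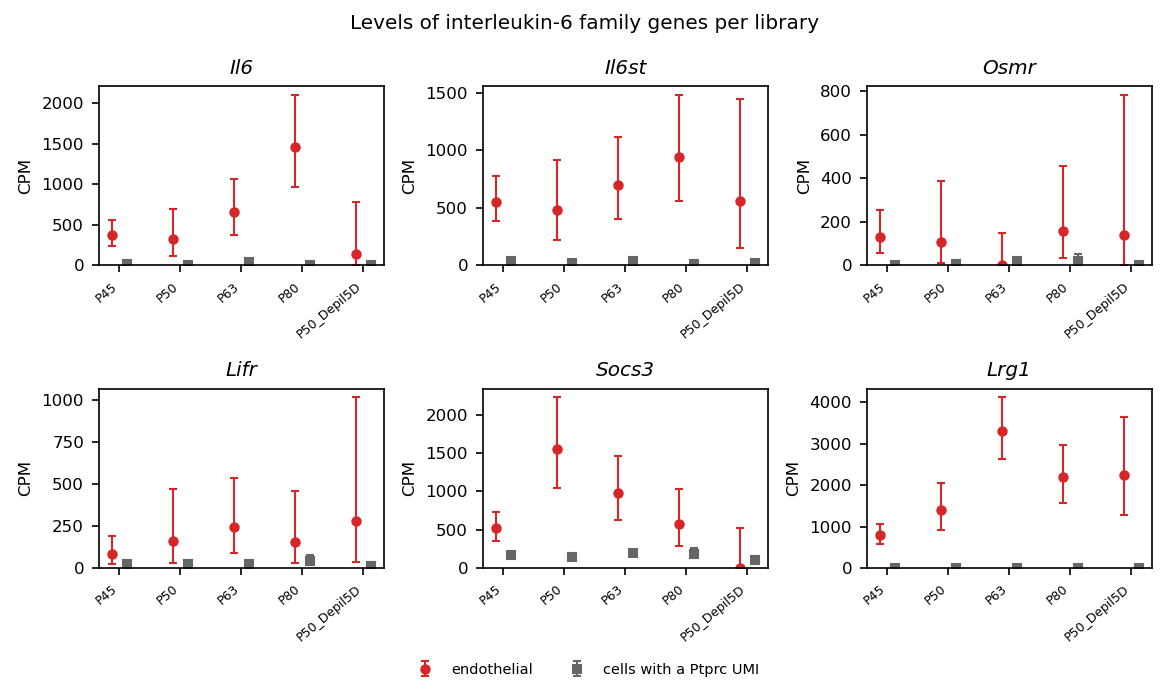
Levels in CPM of 6 genes in the endothelial cells (circles) and in cells with a Ptprc UMI (squares) of each library, with exact 95% Poisson intervals. Il6, Il6st, Lrg1 and Socs3 stand above the squares in P45, P50, P63 and P80. In P50_Depil5D Socs3 is at 0 and Il6 at 141 CPM, from 4 cells.

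Set beside the mural cells, the endothelial cells were higher in 28.5% and lower in 12.6% of 1163 genes with 20 or more UMIs over both classes, or 41.1% past 2-fold, with a median log2 ratio of 0.35. TMM scaling, which assumes that most genes do not differ, moved this median to 0.90 and the split from 331 higher and 147 lower to 538 and 72, so a value near the median has no fixed direction. Counting each barcode once, 41.2% of 1019 genes were past 2-fold. In simulated counts with the totals of the 2 classes, 14.9% of 968 unchanged genes were past 2-fold too. The 10 genes of largest difference on the endothelial side were at 0 in the mural cells, which allows up to 121 CPM. Of these, Plvap had 148 UMIs in 31 endothelial cells, at least 9.34-fold higher. Kdr, the main VEGF receptor, had 60 UMIs in 21 cells, at least 3.79-fold higher. Mmrn1, Lyve1, Selp, Il6st and Ackr1, described above, were among the 10, with Tmem252 (73 UMIs in 25 cells) and Ctla2a (64 UMIs in 26 cells). Ptn, a growth factor, was also among them, with 65 UMIs in 7 cells, but 48 of them lay in 2 cells of P50, and Sox10 UMIs were also found in 2 endothelial cells of that library.

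Most fixed endothelial lists lay on the endothelial side. Of 27 pan-endothelial genes 19 passed the minimum and 16 were past 2-fold higher, with a median of 2.17. A gene that reached 20 UMIs through the deeper class alone had to differ, so these counts are no support. Pecam1 stood at 580 against 40.3 CPM and Cdh5 at 489 against 161 CPM. In the mural cells 1 cell held all 4 of the Cdh5 UMIs. Of 10 MHC genes 8 passed and 6 were higher. H2-D1, a class I heavy chain, stood at 1512 against 242 CPM and B2m, its light chain, at 2902 against 807 CPM. The class II invariant chain Cd74 was found in 25 of 42 endothelial cells at 634 CPM and in 5 of 9 mural cells at 484 CPM, beside 22072 CPM in cells with a Ptprc UMI. How much of it is free RNA was not tested. Of 14 interferon-stimulated genes 9 passed and 7 were higher. Among them Ifitm3, an antiviral membrane protein, stood at 5101 against 1614 CPM, and at 391 CPM in cells with a Ptprc UMI. Ly6a and Ly6c1, surface proteins of blood endothelium, had 168 of 169 and 188 of 189 endothelial UMIs in the Aqp1 and Egfl7-led cells.

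Vessel matrix and stress genes were nearer to each other in the 2 classes. Of 19 basement membrane and matrix genes 8 passed, and Sparcl1 alone was past 2-fold, at 244 CPM in endothelial and 1372 CPM in mural cells. Under TMM scaling 3 were higher and 1 lower, and keeping 1 copy per barcode 1 was higher and 2 were lower. Of 19 immediate early and heat shock genes 18 passed, 2 were higher and 1 was lower, with a median of 0.06. Fos stood at 5323 and 5043 CPM. Under TMM scaling 6 of them were higher and none lower. No cell cycle gene passed, and Mki67 had 0 UMIs in both classes, which allows up to 22.9 CPM in endothelial cells.

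**Figure D5:**
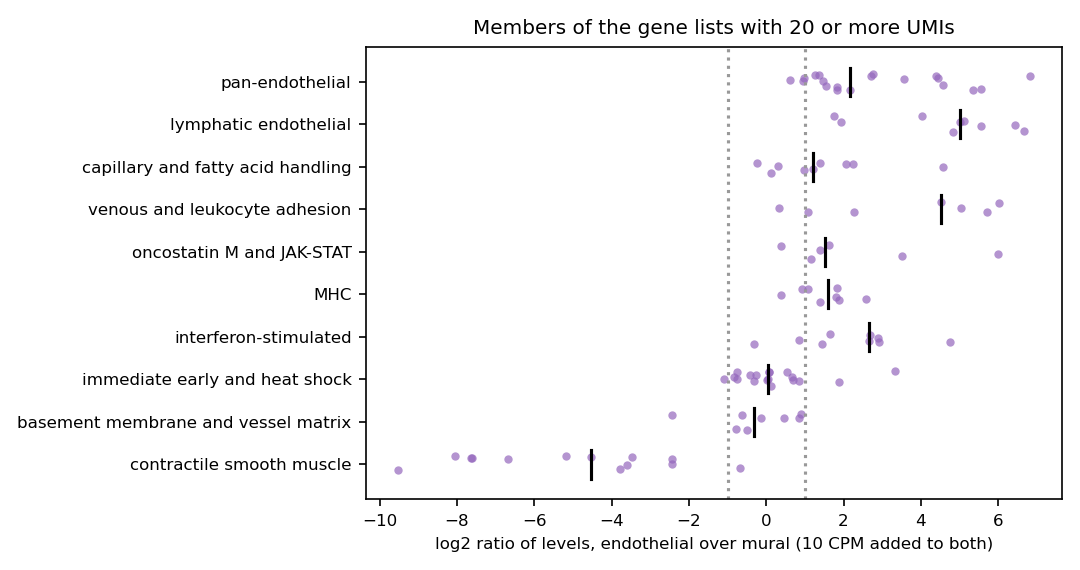
Each point is a list member with 20 or more UMIs over both classes, placed by its log2 ratio of endothelial over mural level with 10 CPM added, and each bar is the list's median. Dotted lines mark 2-fold, and genes of the selection rule are left out. The contractile list lies at a median of -4.53 and the pan-endothelial list at 2.17, beside a median of 0.35 over all 1163 genes.

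Contractile genes beyond those of the rule were higher in the mural cells. Of 19 contractile genes outside the rule 13 passed the minimum and 12 were lower in endothelial cells past 2-fold, with a median of -4.53. As above, a gene that passed through its mural UMIs alone had to differ, so the count is a description. Tpm2, a muscle tropomyosin, had 183 UMIs in 9 of 9 mural cells and 0 in endothelial cells, at least 322-fold. Myl9, the regulatory myosin light chain of smooth muscle, had 116 UMIs in 9 of 9 mural cells and 1 in endothelial cells, a level ratio of 613 whose lower side is set by a single UMI. Myh11, the smooth muscle myosin heavy chain, had 48 UMIs in 7 mural cells, at least 84.5-fold, and Des, the intermediate filament desmin, had 49 in 5 cells, at least 86.3-fold. Mylk, the kinase of that light chain, stood at 5365 against 137 CPM. Actg2, Pcp4 and Fbxl22 were found in 3 mural cells each, all in P45. Ppp1r14a, an inhibitor of myosin phosphatase, had a log2 ratio of -4.88, and of -0.13 without P45, so its place rests on that library. Without P45 the log2 ratios of other contractile genes were also smaller in size, at -7.35 in place of -9.53 for Tpm2, -6.44 in place of -8.05 for Myl9 and -4.89 in place of -7.63 for Des. Myh11 went from -7.60 to -5.29, Mylk from -5.19 to -4.00 and Tpm1, another tropomyosin, from -4.53 to -2.78.

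The rule's own genes varied widely among the mural cells. Acta2, smooth muscle actin, had 21 to 70 UMIs in the 4 cells of P45, 5 and 9 in P50, 4 in P63 and 4 and 9 in P80, which is 15351 CPM in P45 (13390 to 17520) and 2500 to 3973 CPM in the others. Tagln, transgelin, stood at 7885 CPM in P45 (6498 to 9480), 4285 in P50, 631 in P63 from 1 UMI, and 2751 in P80. Acta2 had 0 UMIs in the endothelial cells and Tagln had 33 UMIs in 18 of them, all led by Aqp1 and Egfl7.

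The promoters of 2 of these genes are shown because the contractile genes were found together and serum response factor is known to bind the CArG box in smooth muscle promoters. In 300-base windows from 250 bases before to 50 after each RefSeq start (GRCm38.p6), a strict CArG box, searched on both strands, was found for 2 of the 17 contractile genes matched by symbol, rule genes included. It was found for 1.81% of 27025 genes, for 0 of 12 matched pericyte genes and for 0 of 13 matched pan-endothelial genes. Capitals mark the box, with 40 bases on each side.
Myl9, chr2:156775263-156775352, plus strand: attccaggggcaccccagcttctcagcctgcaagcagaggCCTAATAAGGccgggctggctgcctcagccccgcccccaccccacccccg
Myl6, chr10:128493010-128493099, minus strand: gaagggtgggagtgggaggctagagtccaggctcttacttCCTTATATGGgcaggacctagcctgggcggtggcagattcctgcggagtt
The box began 161 bases before the start of Myl9 and 50 bases before that of Myl6, the essential light chain. Myl6 had 154 UMIs in 9 mural cells and 148 in 38 endothelial cells (6212 against 1130 CPM), and it was found in 2194 of the 2591 cells with a Ptprc UMI at 1105 CPM, so the 2 genes with a box differed in how far they were held to mural cells. A match is a description of letters, and its absence in the other windows says nothing of the factor.

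The mural cells divided by Rgs5, a regulator of G-protein signalling that marks pericytes. Rgs5 had 1 to 4 UMIs in 6 cells and none in 3. The 3 cells without it were all in P45, with mitochondrial shares of 8.17% to 9.59%, against 1.76% to 6.04% in the others. Split in this way, 40.1% of 207 genes with 20 or more UMIs were past 2-fold, 18.4% higher and 21.7% lower in the Rgs5 cells, with a median of 0.01, and the same holds with 1 copy per barcode since no mural cell shares one. Pericyte markers were sparse. Of 19 the 6 Rgs5 cells carried 4 to 7 and the 3 others 0 to 1, with Rgs5 itself among them. Notch3, the mural Notch receptor, had 8 UMIs in 5 cells, while Kcnj8 and Abcc9, the pericyte potassium channel subunits, were at 0.

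The 3 cells without Rgs5 had the higher contractile levels. Of 12 contractile genes that passed, 10 were past 2-fold lower in the Rgs5 cells. Des stood at 229 CPM in the Rgs5 cells and 3927 CPM in the others, Myh11 at 535 and 3500 CPM, and Tpm2 at 2218 and 13146 CPM. Actg2, the enteric form of smooth muscle actin, had 25 UMIs and Pcp4, a calmodulin-binding peptide, had 27, in the 3 cells without Rgs5 alone. Whether these 3 cells came from vessel walls or from other smooth muscle was not tested. Itga8, a marker also of the dermal sheath, had 7 UMIs in 3 mural cells.

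The 6 Rgs5 cells were higher in most immediate early and heat shock genes that passed the minimum, and in Fabp4. Of 11 such genes, 10 were past 2-fold higher, beside 18.4% higher and 21.7% lower of all 207 genes. This count too is a description, since a gene that passed through 1 side alone had to differ. Atf3 stood at 2448 against 341 CPM and Junb at 4436 against 939 CPM. Cebpb, an inflammatory transcription factor, had 46 UMIs in 6 cells against 1, and Nfkbia, an inhibitor of NF-kB, had 37 in 6 cells against 0, at least 11.1-fold. Fabp4 had 46 UMIs in 5 of the 6 cells, 29 of them in the P50 cell that also carried pan-endothelial markers. Library and Rgs5 cannot be told apart here, since all but 1 of the Rgs5 cells came from the other libraries.

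Between time points the endothelial classes themselves differed in makeup, since P80 held no Ccl21a-led cell. Over all endothelial cells, 35.8% of 1306 genes with 10 or more UMIs were past 2-fold, 15.5% higher and 20.3% lower in P80 than in P45. Counting each barcode once gave 39.7% of 1258 genes. The genes lowest in P80 were those of the Ccl21a-led cells. Mmrn1 had 0 UMIs in P80 and 122 in P45, at least 12.7-fold, followed by Lyve1, Cldn5, Maf, Igfbp5 and Nts, all at 0 in P80. TMM scaling moved the split from 202 higher and 265 lower to 85 and 461.

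Within Aqp1 and Egfl7-led cells, 7 in P80 and 9 in P45, 30.2% of 693 genes were past 2-fold, 16.0% higher and 14.1% lower, with a median of 0.03. The deepest copies alone gave 33.6% of 657. Of 19 immediate early and heat shock genes 17 passed, of which 11 were lower and none higher in P80, with a median of -1.28. Fos, the first-responding AP-1 gene, had 2 to 46 UMIs per cell in P45 and 1 to 9 in P80, which gave 6832 CPM (5830 to 7958) and 1355 CPM (885 to 1986). It stood at 3496 CPM in P50, 3598 in P63 and 1653 in P50_Depil5D. In cells with a Ptprc UMI the order of P45 and P80 was the reverse, with Fos at 2577 CPM in P45 and 3205 in P80. Klf4 (261 against 1366 CPM), Egr1 (365 against 1615) and Klf2, a flow-responsive factor (469 against 1408), were lower in P80 too. Atf3 was not, at 782 against 745 CPM. Keeping 1 copy per barcode, 4 cells are left in P80, where 13 of the 17 were lower and Fos stood at 1092 CPM. Of the 4, all but 1 have a shared barcode.

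Some capillary genes in these cells were lower in P80, and of the venous genes 2 were higher and 1 was lower. Of 15 capillary and fatty acid handling genes 9 passed, and 4 were past 2-fold lower and none higher, with a median of -0.96. Over all 693 genes 14.1% were lower and 16.0% higher. Of the 7 P80 cells, 6 had a shared barcode. Cd300lg, an endothelial glycoprotein, had 3 UMIs against 12, and Cav1, caveolin, stood at 469 against 1118 CPM. Selp was 1.99 higher on the log2 scale and Ackr1 1.40 higher, while Vwf, von Willebrand factor, had 1 UMI against 13. A single P80 cell held 15 of the 29 Selp UMIs, and without it the Selp intervals of P80 and P45 overlapped. Clic4, a chloride channel protein of endothelial tubes, had 21 UMIs in 4 P80 cells and 3 in 2 P45 cells, a level ratio of 8.81 (2.63 to 46.1). Isg15 had 12 UMIs in 2 cells against 0, at least 5.04-fold, and Cd63 had 13 in 2 cells against 0, at least 5.45-fold. These 2 genes were in few cells. Id1, a target of BMP signalling, had 0 UMIs against 18 in 4 cells, at least 4.77-fold lower.

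In P50_Depil5D against P50, 4 endothelial cells against 9, 22.6% of 385 genes were past 2-fold, 7.53% higher and 15.1% lower, with a median of 0.07. TMM scaling moved the split from 29 higher and 58 lower to 6 and 119. With 1 copy per barcode, 1 cell against 5, it was 47.3% of 205 genes, 12.2% higher and 35.1% lower. Of 19 immediate early and heat shock genes 15 passed, with 7 lower and none higher, among them Jun at 422 against 1766 CPM and Fos at 1265 against 3586 CPM. The metallothionein Mt1 had 0 UMIs against 116 in 5 cells, 95 of them in 1 cell, at least 14.7-fold lower. Ptn, Tppp3, Etv1 and Gpm6b were at 0 in P50_Depil5D, and all their UMIs in P50 lay in 2 cells each. Leaving out the cells with markers of another type lowered the count of genes past 2-fold from 87 to 46. The 6 genes highest in P50_Depil5D were Ndufb7, Nop10, Selk, Nfib, Bst2 and Hspa5, with 7 to 9 UMIs each. Their level ratios ran from 2.95 for Bst2 to 3.68 for Ndufb7, and their lower limits reached at most 1.12, for Nfib. Of the 4 cells, 3 have copies in other libraries, P50 among them, so this comparison is in part of the same barcodes with themselves.

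Mural cells were compared between P80 and P45 alone, with 2 cells and 4, since P50_Depil5D had none. Of 287 genes 53.3% were past 2-fold, 13.9% higher and 39.4% lower in P80, with a median of -0.45. TMM scaling moved the split from 40 higher and 113 lower to 20 and 178. Of the 16 contractile genes that passed, 14 were lower and none higher. Of 9 immediate early and heat shock genes that passed, 8 were higher. The P45 cells held 14331 UMIs and those of P80 3272, so a gene could pass through P45 alone. Such a gene had to be lower, so these counts are descriptions. Atf3 had 10 and 12 UMIs in the 2 cells of P80 and 4 UMIs over the 4 of P45, and Socs3 had 3 and 7 against 0, at least 14.6-fold. This is the reverse of the order of Fos and most immediate early and heat shock genes in the endothelial cells of the same 2 libraries. The 3 mural cells of P45 without Rgs5 carried 769 of the 1035 UMIs of the 19 contractile genes in all mural cells. None of the P80 cells lacks Rgs5.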

How the data were processed

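The authors deposited whole-number UMI counts per gene and cell barcode, 27998 genes in each of 5 matrices. The submitters' processing notes name the mm10 build and Seurat. Which aligner and counting tool were used, and how cells were called, is not given in the sources used here. Single-cell libraries were made on the 10x Genomics platform from 3' ends, per the labels' protocols. The matrices held 6223 barcodes and 16940028 UMIs. A barcode needed 200 genes and a mitochondrial share of no more than 10%, and 61 barcodes failed.

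The selection rule was applied to single cells. UMIs were then summed per class and library and divided by the class total to give CPM. Ratios are log2 of levels with 10 CPM added, and a gene is past 2-fold at a log2 ratio of 1 or more in size. Class contrasts used genes with 20 or more UMIs and library contrasts those with 10 or more. All genes of the selection rule were left out, which are the 5 marker genes, Ptprc, Krt5, Krt14, Col1a1, Col1a2, Col3a1 and Dcn. In class and library contrasts alike, a gene that reached the minimum through 1 side alone had to differ. A fold against a class at 0 is set against 3 counts in that class. Rows with the same symbol were summed for levels. Intervals are exact Poisson for CPM, Clopper-Pearson for shares and exact conditional for ratios, at 95%. With 1 library per group no test between groups was run. Of the gene identifiers 27645 were found in GENCODE vM21, and promoters came from RefSeq.

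Genes named are those of the rule, list members with 10 or more UMIs in a class, members at 0 that define a cell type, and the largest differences: 10 per direction between classes, 8 within a class and 6 between libraries where the interval excluded 1 and the gene was neither ribosomal, mitochondrial nor an unnamed model. A further condition, the same direction in each library with 5 cells of both classes, applied to no library. List members beyond the 5 of highest level, Itga8, single cells and the library holding a gene's UMIs were chosen for mention after their values were seen. No doublet caller was run. The values of 1 marker gene are not reported here. Members and lists were chosen with earlier results of these data known. The code was tested on simulated endothelial against mural counts. Of 200 genes changed 8-fold, 97% were recovered, and 14.9% of 968 unchanged genes also passed 2-fold. The other contrasts were not simulated. Alternatives covered the selection, scaling by TMM (edgeR 4.0.16), the added CPM, filters and shared barcodes. Python 3.11.15, numpy 2.4.6, scipy 1.17.1, pandas 2.3.3, biopython 1.88 and matplotlib 3.10.9 were used.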

Additional observations from a re-analysis of the deposited data

How the results depend on the processing

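The number of cells limits every value here, and 1 deep cell can set a level. Over the alternatives, 833 of 867 values for single genes stayed within their counting interval. Some of these could not move, since the setting with no minimum leaves a gene's level as it was, and some settings leave the same cells. For a gene at 0 on 1 side the interval is also open at 1 end. So the count overstates how far the values held. Reversals were found for Manf (-2.30 without shared barcodes, -4.82 with under 2 leukocyte-marker UMIs per cell) and Ran (-2.30 without shared barcodes) in endothelial cells of P80 over P45, where their log2 ratios had been 3.33 and 3.31. Of 184 other values, 164 held. Shares and ratios of cells were judged by their counting interval, and counts of genes by a set fold of the main count. With under 2 leukocyte-marker UMIs, the endothelial share of P45 was 0.140%. With at most 5% mitochondrial UMIs, the mural share of P45 was 0. Without shared barcodes, the endothelial share was 0.263% in P63 and 0.415% in P80, where the endothelial cells per mural cell came to 0.5 in place of 3.5.

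Counts of genes past 2-fold moved with the genes and cells that entered. Endothelial against mural gave 478, and 5612 with no minimum, 256 without shared barcodes, 178 with under 2 leukocyte-marker UMIs and 265 to 480 when 1 library at a time was left out, the lowest without P45. Ccl21a-led against Aqp1 and Egfl7-led cells gave 339, and 5681, 110 and 112 under the first 3 of these and 121 in P45 alone. P80 over P45 in endothelial cells gave 467, and 5980 with no minimum, 72 with under 2 leukocyte-marker UMIs and 209 in Aqp1 and Egfl7-led cells. P50_Depil5D over P50 gave 87, and 3884 with no minimum and 46 without the 4 cells with markers of another type. Mural P80 over P45 gave 153, and 3790 with no minimum and 99 with under 2 leukocyte-marker UMIs. The settings with fewer cells test fewer genes, and those with no minimum test more.

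TMM scaling moved the median log2 ratio from 0.35 to 0.90, from -0.24 to -0.51, from -0.05 to -0.63, from 0.07 to -0.59 and from -0.45 to -1.40 for these comparisons in the same order. The last 3 splits of higher and lower genes went to 85 and 461, 6 and 119, and 20 and 178, and the second to 72 and 298. Chosen after seeing the data were the other-type, P45-only, deep-cell, Aqp1-only and most-UMI-cell settings, 1 copy per barcode for counts of genes, and every alternative for Ccl21a-led against Aqp1 and Egfl7-led cells. Mural cells of P50_Depil5D over P50 could not be compared. No paired analysis was possible because each group has 1 library.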
